A study of Homo sapiens with 10 samples.

Results

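The genes described here encode the hemidesmosome, the integrins that bind laminin and the proteins that join them: ITGB4, ITGA6, ITGA3, ITGA7, ITGB1, CD151, PLEC, DST, COL17A1 and LAMB3. They were chosen by gene name, and all probes annotated to them were taken. Of the 10 genes, 8 had probes, 24 probes in all among the 24105 used. ITGA6 and COL17A1 were not analysed here. Of the 24 probes, 19 were detected on at least 1 array and were tested, among 14018 such probes on the whole array.

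In epithelia, hemidesmosomes fix basal cells to the basement membrane. The alpha 6 beta 4 integrin binds laminin outside the cell, and the long cytoplasmic tail of beta 4 binds plectin, which is linked to intermediate filaments. Laminin is also bound by integrins that pair alpha 3, alpha 6 or alpha 7 with beta 1, and alpha 6 pairs with either beta chain. Beta 4 also takes part in signalling by MET, the receptor of hepatocyte growth factor (HGF).

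RNA was measured in MDA-MB-435, a human line labelled as melanoma, on Illumina bead arrays, with 2 arrays in each of 5 groups. The groups were untreated cells, cells given HGF for 1, 6 or 24 h, and cells transduced with ITGB4, which received no HGF. The labels call the 2 arrays of a condition biological duplicates, and no source says whether the transduced cells were 1 clone or a pool. No group with an empty vector was among the samples, so ITGB4 and the transduction itself cannot be told apart. In RNA from whole cultures, a change in the number of cells that express a gene and a change in RNA per cell cannot be told apart either.

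Between 10226 and 11899 probes were detected per array, and the 2 arrays of a group correlated at 0.976 to 0.989. Replicate 1 of the untreated, HGF 1 h, HGF 6 h and HGF 24 h groups stood apart. The 25th percentile of the detection score was 0.00814 to 0.0225 on these 4 low-score arrays and 0.249 to 0.388 on the other 6. Each of those 4 groups held 1 array of either kind, and both ITGB4 arrays were high-score arrays. Of the melanocyte markers, 9 of 9 genes with a probe were detected, and their summed signal was 18624 to 28490.4. Of the epithelial markers, 5 of 10 were detected, with a summed signal of 533.7 to 718.6. Of these markers KRT14 and ESRP1 were detected on 10 arrays, KRT15 and DSC3 on 9, KRT5 on 5, and EPCAM, CDH1 and KRT19 on 0. The sums of the lists add different probes and different numbers of genes, so they are not compared with each other.

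All values below are signals after quantile normalisation in arbitrary units, and a signal of about 89.6 marked the limit of detection. No background was subtracted from them, whereas the authors' normalised table holds values after background subtraction. In the probe names, the ending A stands for all listed transcripts of a gene, I for 1 isoform and S for a single transcript record, and an S probe can stand beside isoform probes of the same gene, as in PLEC. Signals of different probes are not compared, since each probe has its own brightness. Differences are on the log2 scale with the standard error from limma, which pooled the spread over the 5 groups, and adjusted p-values are over the 14018 probes.

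**Figure D1:**
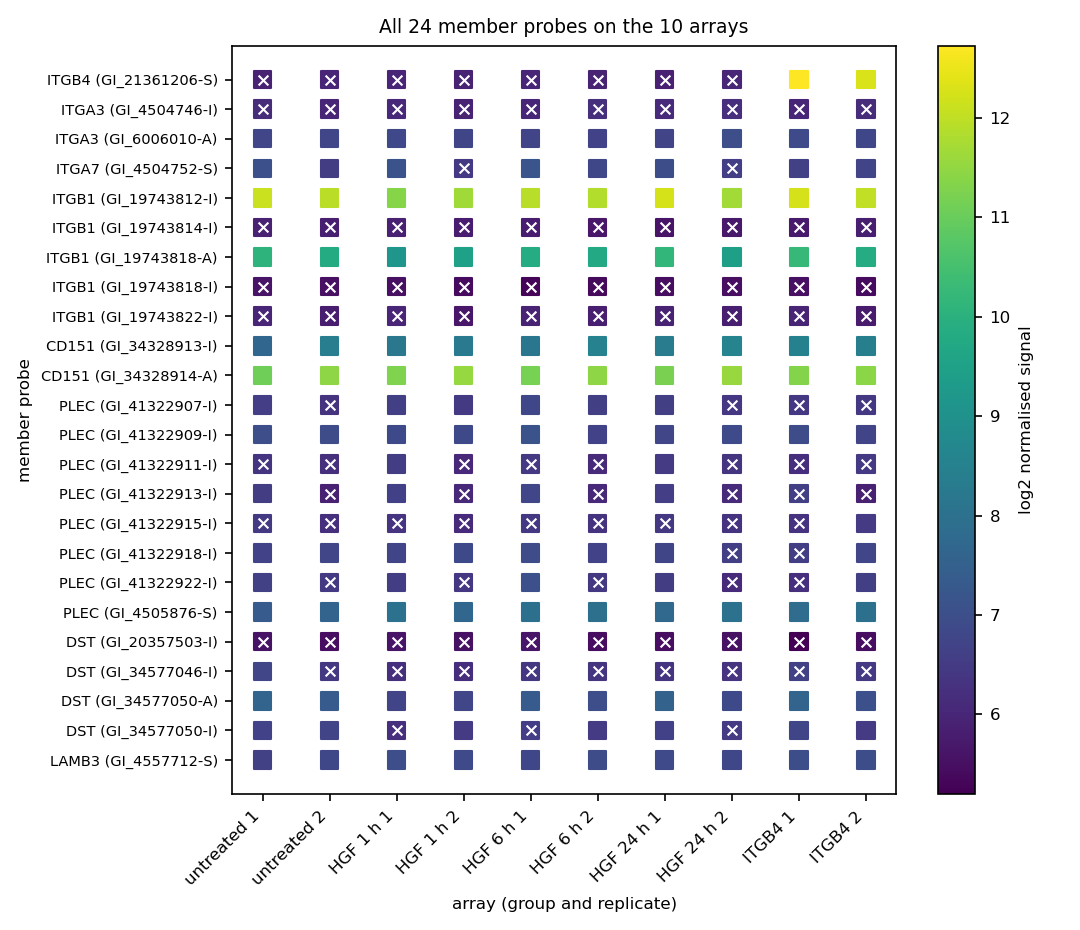
Log2 normalised signal (colour) of the 24 probes (rows) on the 10 arrays (columns), where a white cross marks a probe not detected on that array. ITGB4 was detected only on the 2 ITGB4 arrays, while 9 probes of the other genes were detected on all 10.

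ITGB4, the beta chain of the hemidesmosomal integrin, was read by 1 probe (GI_21361206-S). Its signal was 6788.1 and 5022.9 on the ITGB4 arrays. It was 61.1 and 62.5 in untreated cells, 62.6 and 60.6 after 1 h of HGF, 63.9 and 60.4 after 6 h, and 59.6 and 63.5 after 24 h. All 8 arrays without the transgene lay below the limit of detection, and the 8 values spanned less than the gap between the 2 ITGB4 arrays.

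The mean log2 signal of ITGB4 was 5.95 ± 0.02 (SD, n = 2) in untreated cells and 12.51 ± 0.31 (SD, n = 2) in transduced cells. Because the probe was not above background on any untreated array, the difference has only a lower bound, and ITGB4 was at least 64.5-fold higher. That bound sets the mean of the transduced arrays against the lowest signal detected on each untreated array. The measured log2 difference was 6.56 ± 0.17 (SE, limma adjusted p = 8.6e-11), and ITGB4 rose. It was the only one of 14018 probes that passed an adjusted p of 0.05 in this comparison, 0.00713% of those tested. ITGB4 is the transduced gene, and its probe was kept only through the 2 ITGB4 arrays. The test is thus a check of the transduction and not a finding about these genes. Against the mean of the other 4 groups the difference was 6.56 ± 0.13 (SE, limma adjusted p = 4e-12), again for 1 probe of 14018 (0.00713%).

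HGF gave no detectable ITGB4 at any time. The log2 differences from untreated were -0.01 at 1 h, 0.01 at 6 h and -0.01 at 24 h, all between signals under the limit of detection, so they say nothing of a level. The probe reads 1 gene, and no probe of this array separates transgene mRNA from that of the cells' own ITGB4. MET, the HGF receptor, is not one of the 10 genes and was added once its values were known. It was near the limit on all arrays. Its signal was 106.9 and 84.4 in untreated cells and 94.6 and 103.6 in ITGB4 cells, and it was detected on 6 of 10 arrays.

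**Figure D2:**
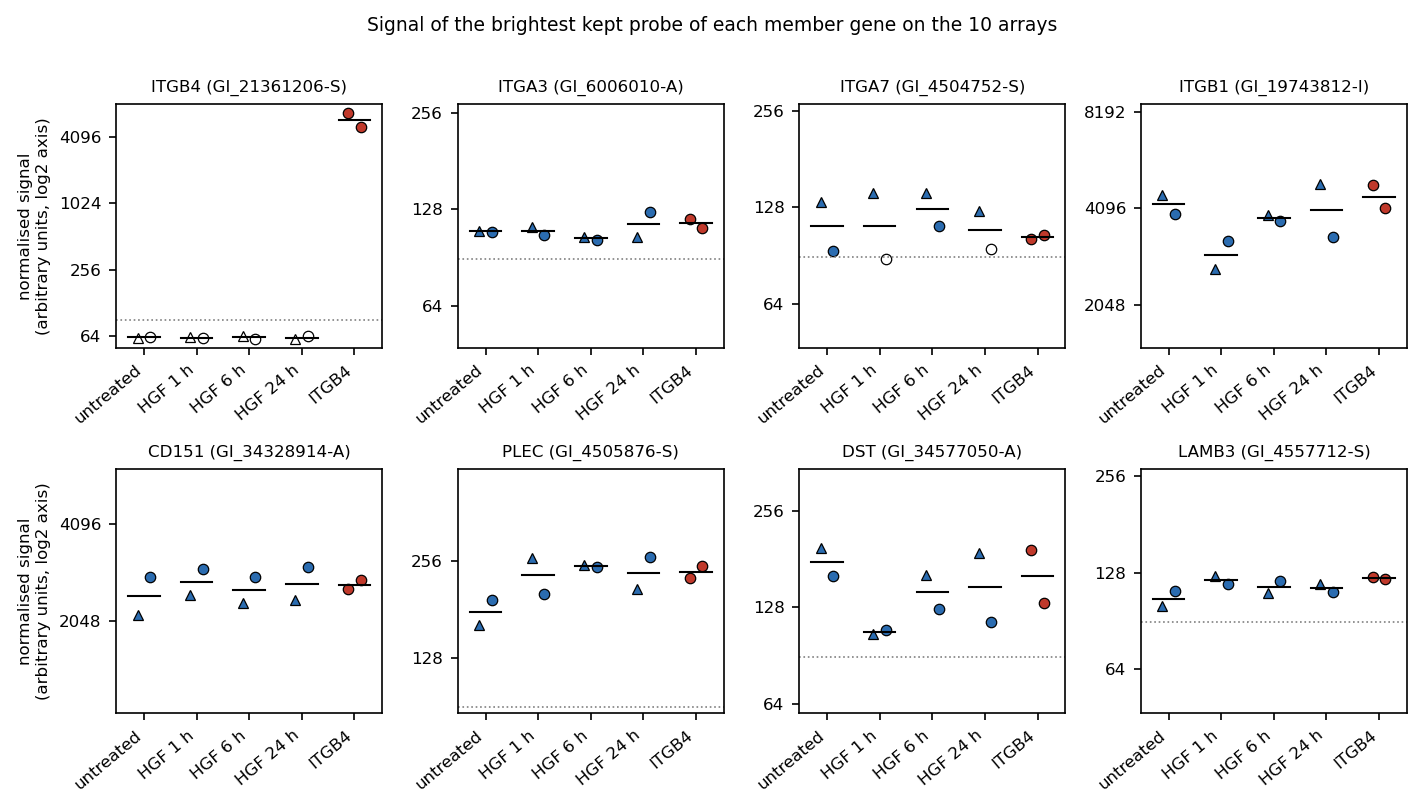
Normalised signal (log2 axis, arbitrary units) of the brightest tested probe of each of the 8 genes in the 5 groups, with a black line at the group mean. Circles are high-score and triangles low-score arrays, red marks ITGB4 cells, open symbols are arrays where the probe was not detected, and the dotted line is the limit of detection. Only the ITGB4 panel shows a gap between groups beyond the spread of duplicates that passed the test.

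The other 18 tested probes stayed close to untreated cells in the ITGB4 arrays. Their median log2 difference was 0.02, with a range of -0.15 to 0.43, and the median of all probes was 0.00. None passed an adjusted p of 0.05, and the lowest adjusted p among them was 1. The 95% intervals of these differences ran from -0.67 to 0.90, so differences within those bounds are not excluded for the probes concerned. The intervals are for signals without background subtraction. For probes near the limit of detection they set no bound on the change in RNA. Over all 19 probes, 2 had an unadjusted p under 0.05 (10.5%), ITGB4 itself and PLEC GI_4505876-S, against 0.835% of all probes. The arrays of ITGB4 and untreated cells did not overlap for 6 of the 19 (31.6%), against 25.7% of all probes. Both shares include ITGB4, whose rise was set by the transduction, and of the 18 others only that PLEC probe had an unadjusted p under 0.05.

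ITGB1, the beta chain that pairs with most alpha chains that bind laminin, had 5 probes. The probe GI_19743812-I gave 4514.8 and 3919.1 in untreated cells and 4844.6 and 4097.5 in ITGB4 cells. It gave 2651.8 and 3233.5 after 1 h of HGF, 3902.8 and 3722.1 after 6 h, and 4882.1 and 3316.3 after 24 h. Both arrays at 1 h lay below all other arrays. The ITGB4 and untreated arrays overlapped.

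The second ITGB1 probe, GI_19743818-A, reads all listed transcripts and followed the same order. It gave 1078.1 and 899.6 in untreated cells, 1198.2 and 908.7 in ITGB4 cells, and 563.5 and 708.4 after 1 h of HGF. After 6 h it gave 911.2 and 850.6, and after 24 h 1136.6 and 690.0. The 24 h arrays lay far apart, 1 above both untreated arrays and 1 between the 1 h arrays. Over the 10 arrays the 2 probes correlated at r = 0.99, as 2 readings of 1 gene in the same RNA.

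At 1 h of HGF the log2 difference of ITGB1 from untreated was -0.52 ± 0.20 (SE, limma adjusted p = 0.29) by GI_19743812-I. By GI_19743818-A it was -0.64 ± 0.23 (SE, limma adjusted p = 0.27). Neither passed the test, and the 95% intervals were -0.95 to -0.09 and -1.14 to -0.14. Within the low-score arrays the differences were -0.77 and -0.94, whereas the high-score arrays gave -0.28 and -0.34, so the size differed. Each of these sets 1 array against 1. Their shared sign follows from both 1 h arrays lying below both untreated arrays and is no separate test of direction.

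At 6 h the ITGB1 differences from untreated were -0.14 and -0.16, and at 24 h they were -0.06 and -0.15. In order of the group means of GI_19743812-I, ITGB4 cells came first with a log2 signal of 12.12 ± 0.17, then untreated cells with 12.04 ± 0.14, HGF 24 h with 11.97 ± 0.39, HGF 6 h with 11.90 ± 0.05 and HGF 1 h with 11.52 ± 0.20 (SD, n = 2 each). No neighbours in that order passed the test where they were compared. The other 3 ITGB1 probes each read 1 isoform and were detected on 0 arrays. Their signals were 48.5 to 59.5 (GI_19743814-I), 38.2 to 48.3 (GI_19743818-I) and 50.7 to 63.6 (GI_19743822-I).

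ITGA3 encodes the alpha 3 chain, which pairs with beta 1 as a receptor of laminin. Its probe for all transcripts, GI_6006010-A, gave 110.0 and 109.2 in untreated cells, 119.6 and 112.0 in ITGB4 cells, 113.1 and 106.2 at 1 h, 105.1 and 102.7 at 6 h, and 105.1 and 125.6 at 24 h. All 10 arrays lay just above the limit of detection. Its differences from untreated were 0.08 in ITGB4 cells and 0.00, -0.08 and 0.07 at 1, 6 and 24 h. The isoform probe GI_4504746-I gave 61.0 to 74.9 and was detected on 0 arrays.

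ITGA7, the alpha 7 chain known from muscle, was read by GI_4504752-S and was detected on 8 of 10 arrays. It gave 132.9 and 93.4 in untreated cells, 101.8 and 104.6 in ITGB4 cells, 141.3 and 87.9 at 1 h, 141.9 and 111.9 at 6 h, and 124.7 and 95.0 at 24 h. The 4 low-score arrays held the 4 highest signals. The part of the array difference in the level of ITGA7 was not tested. The difference between ITGB4 and untreated cells was -0.11 ± 0.24 (SE, limma adjusted p = 1), and 0.13 with the kind of array as a block.

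CD151, a tetraspanin that binds the laminin-binding integrins, was bright on all arrays. GI_34328914-A gave 2128.9 and 2797.1 in untreated cells, 2576.5 and 2745.7 in ITGB4 cells, 2457.2 and 2978.5 at 1 h, 2320.6 and 2802.3 at 6 h, and 2371.6 and 3016.4 at 24 h. Here replicate 2 was above replicate 1 in all 5 groups, and the groups overlapped. The differences from untreated were 0.12 in ITGB4 cells and 0.15, 0.06 and 0.13 at 1, 6 and 24 h.

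The CD151 isoform probe GI_34328913-I gave 205.5 and 325.2 in untreated cells and 354.7 and 342.1 in ITGB4 cells. After HGF it gave 290.4 and 309.4 at 1 h, 283.8 and 374.2 at 6 h, and 316.8 and 384.9 at 24 h. The lowest of the 10 arrays was untreated replicate 1, a low-score array, and both ITGB4 arrays lay above both untreated arrays. Both ITGB4 arrays were high-score arrays, and the high-score untreated array gave 325.2, close to them. The part of the kind of array in this difference was not tested. The difference in ITGB4 cells was 0.43 ± 0.22 (SE, limma adjusted p = 1), which misses the threshold. In the authors' normalised table, the same probe was at 280.6 and 157.3 in ITGB4 cells, so the closeness of these duplicates depends on the table used. The second of those columns did not follow its scanner values as the other 9 did, with a rank correlation of 0.968 against 1.

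PLEC encodes plectin, which ties beta 4 to intermediate filaments. Its probe GI_4505876-S gave 161.9 and 193.6 in untreated cells and 226.8 and 247.5 in ITGB4 cells. It gave 262.7 and 203.1 after 1 h of HGF, 249.5 and 246.1 after 6 h, and 209.3 and 263.4 after 24 h. Both untreated arrays were below the other 8. The lower of them, at 161.9, was a low-score array, whereas both ITGB4 arrays were high-score arrays.

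The log2 difference of PLEC GI_4505876-S was 0.42 ± 0.18 (SE, limma adjusted p = 1) in ITGB4 cells. It was 0.38 ± 0.18 (adjusted p = 0.38) at 1 h, 0.48 ± 0.18 (adjusted p = 0.2) at 6 h and 0.41 ± 0.18 (adjusted p = 0.86) at 24 h (SE, limma). None passed the test. All 4 differences use the same 2 untreated arrays, so they are not 4 separate readings, and against the mean of the other 4 groups the ITGB4 difference was 0.10. Within the low-score arrays the HGF differences were 0.70, 0.62 and 0.37, while the high-score arrays gave 0.07, 0.35 and 0.44. In the authors' normalised table the differences at 6 h and 24 h were 0.81 and 0.65, and they did not pass the test.

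The 7 PLEC isoform probes gave 58.9 to 138.6 over all arrays. GI_41322909-I was detected on 10 arrays, GI_41322918-I on 8, GI_41322907-I on 6, GI_41322922-I on 5, GI_41322913-I on 4, GI_41322911-I on 2 and GI_41322915-I on 1. Their differences from untreated in ITGB4 cells lay on both sides of 0, and none of the 7 passed the test in any comparison.

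DST encodes dystonin, whose epithelial isoform is the plakin BPAG1e of hemidesmosomes, and other isoforms serve nerve and muscle. The probe for all its transcripts, GI_34577050-A, gave 195.3 and 160.6 in untreated cells, 193.4 and 132.4 in ITGB4 cells, and 105.6 and 109.0 after 1 h of HGF. After 6 h it gave 161.7 and 126.1, and after 24 h 189.2 and 115.0. The 1 h arrays were the lowest of all 10.

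At 1 h the difference of DST GI_34577050-A from untreated was -0.72 ± 0.24 (SE, limma adjusted p = 0.25), with a 95% interval of -1.25 to -0.19. It did not pass the test in this fit, which had no block, though it was the furthest from 0 among the 18 probes. The fit with the replicate number as a block, where the outcome differed, is given in the last section. The difference was -0.89 among the low-score arrays and -0.56 among the high-score arrays. At 6 h and 24 h it was -0.31 and -0.26, and in ITGB4 cells -0.15. The size at 1 h depended on the table used. The authors' normalised table, with background subtracted, gave -1.64 and did not pass the test either. The part of background subtraction in this was not tested.

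Of the other DST probes, GI_34577050-I gave 102.5 and 105.8 in untreated cells and 75.5 and 91.8 at 1 h, a difference of -0.32 ± 0.16 (SE, limma adjusted p = 0.42). GI_34577046-I was detected on 1 array, an untreated one at 108.7, and gave 76.0 and 73.5 at 1 h. GI_20357503-I was detected on 0 arrays, with signals of 36.7 to 49.1.

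LAMB3 encodes the beta 3 chain of the laminin that hemidesmosomes bind. GI_4557712-S gave 100.5 and 112.3 in untreated cells, 123.8 and 122.4 in ITGB4 cells, 125.1 and 118.3 at 1 h, 110.7 and 120.6 at 6 h, and 118.1 and 111.3 at 24 h. All values were near the limit of detection, and both ITGB4 arrays lay above both untreated arrays. The lower untreated array, at 100.5, was a low-score array, whereas both ITGB4 arrays were high-score arrays. The difference was 0.21 ± 0.15 (SE, limma adjusted p = 1) in ITGB4 cells and 0.20, 0.12 and 0.11 at 1, 6 and 24 h. The authors' normalised table gave 0.55, 0.56, 0.61 and 0.48, and none of these passed the test.

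**Figure D3:**
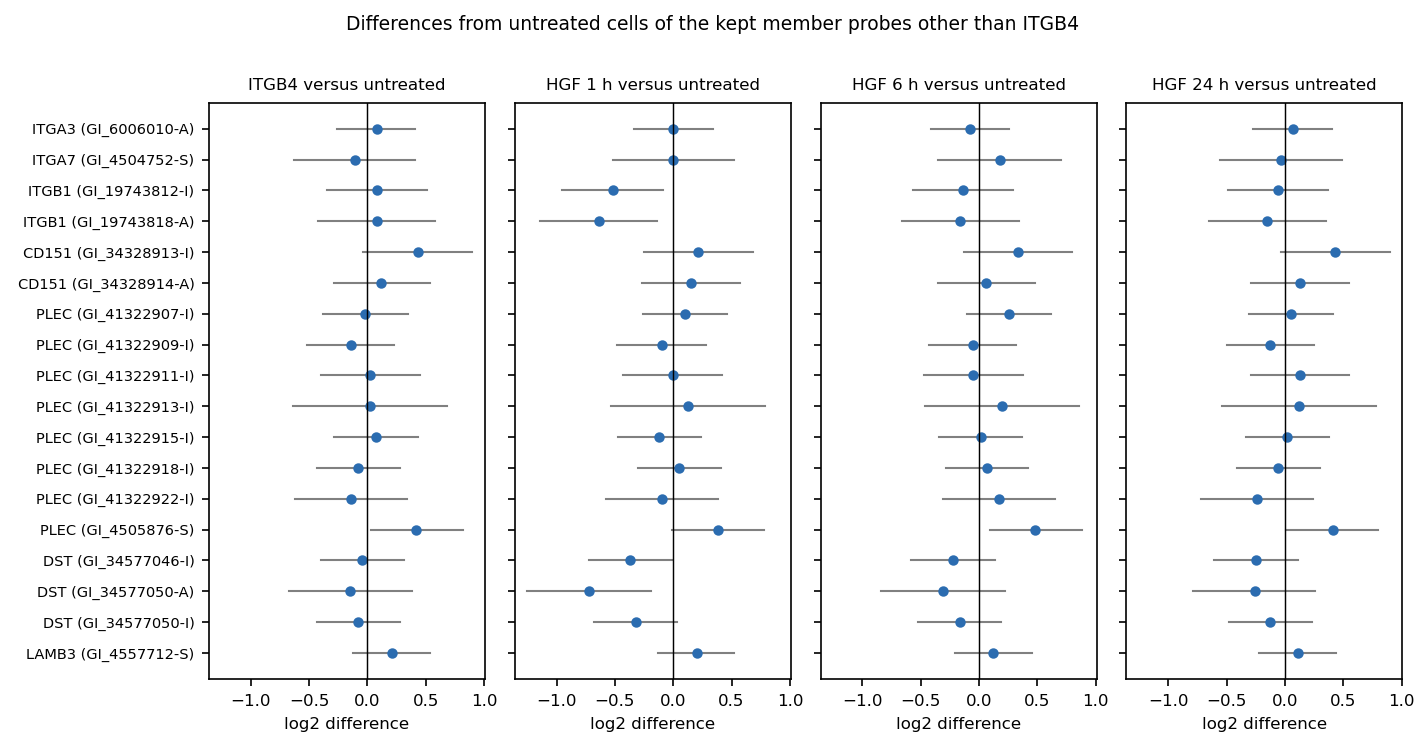
Log2 difference from untreated cells (horizontal axis) of the 18 tested probes other than ITGB4 in the 4 comparisons, with dots for the limma estimates and lines for the 95% intervals. The dots run from -0.15 to 0.43 in ITGB4 cells and from -0.72 to 0.38 at 1 h of HGF, where the probes of ITGB1 and DST lie furthest below 0.

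HGF was compared with untreated cells at each time over the 19 tested probes, with the same 2 untreated arrays throughout. At 1 h none passed an adjusted p of 0.05, as for all probes (0%), and 4 had an unadjusted p under 0.05 (21.1%, against 13.5% of all probes). Those 4 were both ITGB1 probes, DST GI_34577050-A and DST GI_34577046-I. The arrays did not overlap for 8 probes (42.1%, against 44.2%).

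At 6 h 0 of the 19 passed, against 267 probes or 1.9% of all, and 1 had an unadjusted p under 0.05 (5.26%, against 16%). The arrays did not overlap for 6 (31.6%, against 44.6%). At 24 h 0 passed, against 0% of all, and 1 had an unadjusted p under 0.05 (5.26%, against 5.71%), with no overlap for 4 (21.1%, against 29.6%). At both times the 1 probe was PLEC GI_4505876-S.

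The times were also set against each other, which leaves the untreated arrays out of the difference but not out of the pooled spread. From 1 h to 6 h the 18 probes other than ITGB4 had a median difference of 0.12, with 14 above 0 and 4 below. The median of all probes was -0.01. None of the 18 passed, against 4.67% of all probes. PLEC alone has 8 of these probes. With 1 probe per gene, 5 of 8 genes, ITGB4 included, were above 0, with a median of 0.06. ITGB1 was 0.38 and 0.48 higher at 6 h by its 2 probes (limma adjusted p = 0.31 and 0.27), and DST GI_34577050-A was 0.41 higher (adjusted p = 0.39). From 6 h to 24 h the median was 0.00 and 0 passed, against 8.31%. From 1 h to 24 h the median was 0.05 and 0 passed, against 0% of all probes. At an unadjusted p under 0.05 these 3 comparisons held 0, 0 and 1 of the 19 probes, against 20.5%, 21.3% and 6.33% of all.

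**Figure D4:**
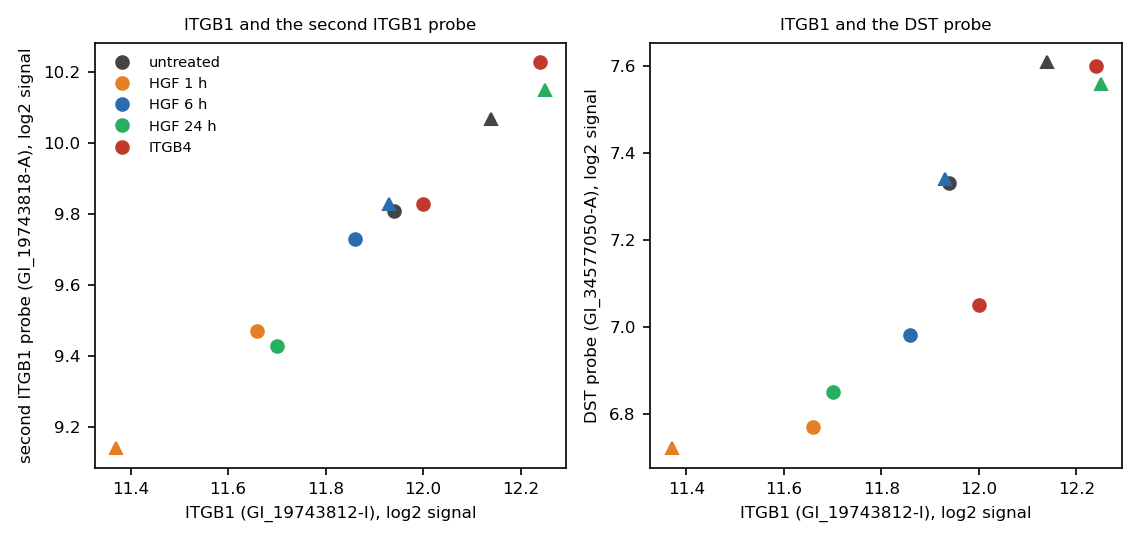
Log2 signal of ITGB1 GI_19743812-I (horizontal axis) against the second ITGB1 probe (left) and DST GI_34577050-A (right), with 1 point per array, colours for groups, and circles and triangles for high-score and low-score arrays. Both panels rise from the 1 h arrays at the lower left to an untreated, a 24 h and an ITGB4 array at the upper right.

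Over the 10 arrays, DST GI_34577050-A followed the ITGB1 probes at r = 0.91 and 0.93. The points share arrays, groups and the quantile normalisation, so this describes these 10 arrays. Of the 2 HGF 24 h arrays, 1 lay among the highest and 1 among the lowest for both genes. The 2 CD151 probes correlated at 0.79, and CD151 GI_34328914-A and ITGA7 at -0.86, with the low-score arrays high in ITGA7.

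The genes most like ITGB1 GI_19743812-I over the 10 arrays were WSB1 (r = 0.99, rho = 0.94), DPY19L4 (r = 0.97, rho = 0.95) and SEPTIN7 (r = 0.97, rho = 0.95). Without the 2 arrays farthest from the median, r was 0.97, 0.94 and 0.95. For ITGB4 the most alike were FST (r = 0.88, rho = 0.27), F2R (r = 0.87, rho = 0.22) and NIT2 (r = 0.86, rho = 0.44). Without 2 arrays their r was -0.45, -0.44 and -0.06, so those likenesses rested on the 2 ITGB4 arrays.

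The partners of these proteins were taken from lists of the pathway. Of 7 tested laminin chains, 8 tetraspanin and immunoglobulin partners, 5 other laminin receptors and basement membrane genes, 9 anchorage and intermediate filament genes, 11 genes of beta 1 adhesion and 9 signalling partners of ITGB4, 0 passed the test in ITGB4 cells. The medians of the 6 lists were 0.06, 0.00, -0.03, -0.03, 0.01 and 0.02, with 0.00 over all probes. None passed against untreated cells at any time of HGF either. Of the 59 probes of these 49 genes, 0 had an unadjusted p under 0.05 in ITGB4 cells, against 0.835% of all probes. At 1 h there were 7 (11.9%, against 13.5%), at 6 h 11 (18.6%, against 16%) and at 24 h 2 (3.39%, against 5.71%), so these shares were near those of the whole array. In each list the probe with the highest signal was detected on all 10 arrays, which gives no order of mRNA levels between genes. It read LAMC1 among laminin chains (889.9 to 1321.3), BSG among the tetraspanin and immunoglobulin partners (5161.9 to 7976.1), and SDC1 among the other receptors (427.6 to 739.1). It read VIM among filament genes (16722.5 to 21119.3), ILK in adhesion (1896.9 to 3615.1) and FYN among signalling partners (1264.7 to 2978.5).

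Between 6 h and 24 h of HGF, 4 of these partner genes passed the test with 5 of the 59 probes (8.47%), near the 8.31% of all probes. LAMA1, the alpha 1 chain of laminin, gave 179 and 223.1 at 6 h and 83 and 97.6 at 24 h, where it was not detected, against 120.1 and 124.8 in untreated cells. It fell by 1.15 ± 0.18 on the log2 scale (SE, limma adjusted p = 0.003), at least 2.15-fold lower at 24 h. In the authors' normalised table, where values under 18.8 were set to 18.8, the difference was -2.49. Both 6 h arrays were above all others, and the difference from untreated at 6 h was 0.71 ± 0.18 (SE, limma adjusted p = 0.063).

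The other 3 were lower at 6 h than at 24 h. ILK, a kinase-like adaptor at the beta 1 tail, gave 1896.9 and 1971.6 at 6 h and 2700.4 and 3615.1 at 24 h, and rose by 0.69 (limma adjusted p = 0.036). FYN, a kinase that acts on beta 4, gave 1364.3 and 1264.7 at 6 h and 2978.5 and 2122.7 at 24 h by GI_23510363-A, and rose by 0.94 ± 0.21 (SE, limma adjusted p = 0.017). PTGFRN, which binds tetraspanins, rose by 0.64 and 0.67 by its 2 probes (limma adjusted p = 0.038 and 0.043). All 3 calls were lost without HGF 6 h replicate 1, at an adjusted p of 0.17 for ILK, 0.066 for FYN and 0.14 and 0.17 for PTGFRN.

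At 6 h the melanocyte sum was the lowest and the epithelial sum the highest of the 5 groups. The melanocyte sum was 18624 to 19582.5 at 6 h, below the 25391.5 to 28490.4 of untreated cells, and MITF fell by 1.06 ± 0.23 from untreated to 6 h (SE, limma adjusted p = 0.036), a call lost without untreated replicate 1 (adjusted p = 0.15) or 2 (0.21). The epithelial sum was 685.1 to 718.6 at 6 h, against 620 to 621 in untreated cells. It adds signals without background subtraction, and its probes other than ESRP1 averaged 89.1 (KRT5) to 121.7 (KRT14), near the limit of detection. Much of that sum is thus background, and a change of cell type was not tested. Fibroblast markers, of which 3 of 8 were detected, summed to 624.9 to 1031.3, and immune markers, of which 4 of 7 were detected, to 465.2 to 646.2. The probes with the highest signal in the melanocyte, epithelial, fibroblast and immune lists, again with no order of mRNA levels implied, read TYRP1 (6886.3 to 11347.0), ESRP1 (126.9 to 245.2), LUM (277.8 to 688.2) and CD68 (144.4 to 255.0). The part of these markers in the values of the partner genes was not tested.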

How the data were processed

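RNA of 10 MDA-MB-435 cultures was read on Illumina human arrays. The deposited scanner tables, exported by the authors from BeadStudio 1.5.1.3, give an intensity per probe without normalisation, a detection score as a fraction, and a bead count. A deposited table of the whole series holds intensities after background subtraction and rank-invariant normalisation by the authors, and served as an alternative. In it, values under a floor of 18.8 were set to 18.8 before log2. Genome build and probe sequences are not given in the sources used here. Of 24136 probes, 22 controls and 9 without an intensity were left out. Intensities were quantile normalised and taken to log2. Probes with a detection score of 0.99 or more on at least 1 array were kept, 14018 in all. The 5 group means were fitted with limma 3.58.1 in R 4.3.3, with 8 comparisons and Benjamini-Hochberg adjustment over all kept probes. The fit had 5 residual degrees of freedom. The script was tested on simulated data. No source says more of the replicates than biological duplicates. Medians of 26 to 32 beads per probe and the 2 arrays per group limit the precision. Gene names came from the platform annotation, updated to current symbols. All 10 member genes were named with all their probes. From the pathway lists, genes past the test and the brightest gene of each list were named, with the 3 genes most like ITGB4 and ITGB1. MET was added once its values were known. The members and lists were chosen with earlier results of these data known. Alternatives covered background correction, scaling, filters, a floor, bead weights, blocks, an ordinary pooled variance and each array left out.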

Additional observations from a re-analysis of the deposited data

Results flagged for a closer look

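The following partner and marker genes differed between 2 times of HGF in a direct limma comparison of the times, with the untreated arrays left out of the difference. LAMA1 fell by 1.15 from 6 h to 24 h (adjusted p = 0.003) and kept its call with each of the 10 arrays left out (-1.31 to -0.99), but not with an ordinary pooled variance (adjusted p = 0.056). Over the other alternatives its difference ranged from -2.49, in the authors' normalised table with values under 18.8 set to 18.8, to -1.06.

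PTGFRN rose by 0.64 (GI_37549246-S) and 0.67 (GI_41152505-S) from 6 h to 24 h, and these calls were lost in 6 and 8 of the 10 fits without 1 array, among them every fit without an untreated, a 6 h or a 24 h array. ILK rose by 0.69, a call lost without HGF 1 h replicate 1 or 2 (adjusted p = 0.053), HGF 6 h replicate 1 (0.17) or 2 (0.14), or HGF 24 h replicate 2 (0.21). FYN rose by 0.94, a call lost without HGF 6 h replicate 1 (adjusted p = 0.066) or 2 (0.11), or HGF 24 h replicate 1 (0.094).

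The melanocyte marker S100B differed by -0.63 from 1 h to 6 h and by 0.62 from 6 h to 24 h. The first call was lost in 7 of the 10 fits, all but those without HGF 1 h replicate 2 or a 24 h array, and the second in 4, those without a 6 h or 24 h array. ESRP1, a splicing factor of epithelial cells, differed by 0.86 from 1 h to 6 h and by -0.64 from 6 h to 24 h. Its calls were lost in 3 fits (without HGF 1 h replicate 1 or either 6 h array) and 4 fits (without a 6 h or 24 h array). In the authors' normalised table the differences of S100B were -1.25 and 1.31, and those of ESRP1 were 1.65 and -1.09.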

How the results depend on the processing

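ITGB4 passed the test under every alternative run with a test. Its log2 difference from untreated was 6.03 (floor at the detection limit) to 8.22 (the authors' normalised table). In that table untreated ITGB4 was at -15.7 and -3.7, and values under 18.8 were set to 18.8. The 8.22 thus depends on that floor. With 1 array left out the difference was 6.34 to 6.78 (6.35 to 6.78 against the other 4 groups). Of the other member probes, none passed in any comparison, with 3 exceptions. With the replicate number as a block, 1 passed at 1 h of HGF, DST GI_34577050-A at -0.72 (adjusted p = 0.034). The deviations of same-numbered arrays correlated at -0.06 to 0.66, with 8 of 10 pairs of groups over 0.1. The pairs with untreated cells correlated at 0.2 to 0.66. Since not every pair was over 0.1, the numbers were not taken as pairs. The block moved all calls at 1 h from 0 to 427. In the authors' table, PLEC GI_41322907-I passed in 6 h against 1 h (1 probe) and in 24 h against 6 h (1 probe). Its values there were 20.6 and 20.4 at 1 h, 41.6 and 34.5 at 6 h, and 25.4 and 15.9 at 24 h. Most of these lie near the floor of 18.8, to which the 15.9 was raised. The probe was detected on 6 of 10 arrays. The cause was not tested.

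The sign turned for small differences that had not passed the test. With the kind of array as a block, ITGB4 against untreated gave 0.13 for ITGA7, -0.04 for CD151 and 0.02 for DST, and against the other groups 0.09 for ITGA7 and -0.12 for CD151. With median scaling, ITGA3 at 1 h was -0.02 and CD151 at 6 h -0.01. In the authors' table, ITGA3 was 0.00 at 1 h, 0.07 at 6 h and -0.06 against the other groups, ITGA7 -0.07 at 1 h and 0.12 at 24 h, ITGB1 0.05 at 6 h and 0.06 at 24 h, and DST 0.21 in ITGB4 cells. CD151 and PLEC against the other groups were -0.03 and -0.13 there. With bead weights, ITGA3 was -0.01 at 1 h, and ITGA7 0.00 in ITGB4 cells and 0.04 at 24 h. These values are those of the probe with the highest signal of each gene. Within 1 kind of array, 11 values of ITGA3, ITGB1, PLEC and LAMB3 moved by more than the spread of duplicates.

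With 1 array left out, differences in ITGB4 cells ranged from -0.37 to 0.14 for ITGA7, -0.04 to 0.20 for ITGB1, -0.07 to 0.32 for CD151 and -0.42 to 0.13 for DST, and against the other groups from -0.01 to 0.09 for CD151 and -0.10 to 0.45 for DST. At 1 h they ranged from -0.05 to 0.05 for ITGA3, -0.34 to 0.34 for ITGA7 and -0.05 to 0.35 for CD151. At 6 h they ranged from -0.08 to 0.43 for ITGA7 and -0.13 to 0.26 for CD151. At 24 h they ranged from -0.06 to 0.20 for ITGA3, -0.29 to 0.22 for ITGA7, -0.34 to 0.21 for ITGB1, -0.06 to 0.33 for CD151 and -0.62 to 0.10 for DST. MITF at 6 h lost its call in 8 of the 10 fits with 1 array left out (-1.25 to -0.86), all but those without a 24 h array. Of the values of partner and marker genes under the other alternatives, 26 of 100 lost their call and none turned. Probes near the limit of detection allow no statement on small changes.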
